A study of Mus musculus with 6 samples.

Results

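Lipid-associated macrophage genes, 10 genes of lipid uptake, binding, storage and export, were followed in single-nucleus RNA-seq (snRNA-seq) of subcutaneous lung tumors: *Trem2*, *Gpnmb*, *Apoe*, *Lpl*, *Fabp4*, *Fabp5*, *Cd36*, *Plin2*, *Abca1* and *Abcg1*. They were taken by symbol, as 10 of the 22623 genes listed in each of the 6 count matrices. The rule uses symbols only, but the 10 genes were chosen with earlier results of these data known. Macrophage nuclei were those of 2 macrophage-like clusters that also held at least 1 UMI (unique molecular identifier, a count of 1 captured RNA molecule) of *Adgre1*, *Cadm1* or *Csf1r*. This gave 4132 of the 17514 nuclei analyzed. The tumors came from mice of C57BL/6 background that carried loxP-flanked alleles of *Slc16a7*, the gene of monocarboxylate transporter 2 (MCT2), together with a tamoxifen-inducible Cre transgene (mCre-Tg). At 8 weeks of age the knockout (KO) mice were given tamoxifen for 5 days, and control (CO) mice of the same genotype were given vehicle. TC1 cells, a mouse lung tumor line, were injected under the skin 2 days later and grew for 24 days. Both groups thus carried the floxed alleles and Cre, they differed in tamoxifen as well as in recombination, and the implanted TC1 cells are a separate line that did not come from these mice. The promoter that drives Cre is not given in the sources used here, and no group without Cre was analysed here. There were 3 CO and 3 KO libraries. The study describes the libraries of a group as biological replicates.

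Macrophages that take up lipid from dying cells or from their surroundings are known to switch on a shared set of genes. *Trem2* encodes a surface receptor for lipids and lipoproteins, and *Gpnmb* encodes a lysosomal and surface glycoprotein. *Cd36* encodes a scavenger receptor for fatty acids and oxidized lipoproteins, and *Lpl* encodes the lipase that frees fatty acids from triglyceride-rich particles. *Fabp4* and *Fabp5* encode cytosolic fatty acid carriers, and *Plin2* encodes a coat protein of lipid droplets. *Abca1* and *Abcg1* encode the transporters that hand cholesterol to lipoproteins, and *Apoe* encodes apolipoprotein E, a protein component of lipoproteins. Several of these genes are not specific to macrophages, and *Lpl*, *Fabp4* and *Cd36* are best known from adipocytes and capillary endothelium.

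The 6 libraries held 1763 to 4587 nuclei and 7822753 to 16917412 UMIs each, and any pair of them shared 19 to 25 cell barcodes. The macrophage nuclei numbered 586, 774 and 426 in CO replicates 1 to 3 and 961, 285 and 1100 in KO replicates 1 to 3, with a median of 1022 to 1172.5 UMIs per nucleus. *Slc16a7* was at 99.1, 92.1 and 183 CPM (UMIs of the gene per 1000000 UMIs of the same nuclei) for CO replicates 1 to 3, and at 125, 145 and 151 CPM for KO replicates 1 to 3. The groups overlapped. These reads tag the RNA and need not cover the deleted part, so this level does not check the deletion, and CO and KO are used here as the labels give them. The library labelled KO replicate 1 differed from the other KO libraries. In its macrophage nuclei the 16 macrophage markers summed to 7188 CPM, against 4506 and 4531 CPM in the other KO libraries and 6106 to 6249 CPM in CO. The 14 markers of mesenchymal and TC1 cells summed to 918 CPM there, against 3371 and 3382 CPM in the other KO libraries and 817 to 1571 CPM in CO, with *Krt8* and *Krt18* at 0 UMIs in all 6. By the mesenchymal sum KO replicate 1 lay within the CO range, and the other KO libraries lay above it. Which of the KO libraries is the unusual one was not tested. With all libraries, 0 of 9360 genes were called between KO and CO macrophage nuclei, and without KO replicate 1 the number was 1587, so the values of the main edgeR test printed for the 10 genes stand beside those without it. The part of these marker levels in the results was not tested. The GEO tissue label names lung, while the lung epithelial genes *Sftpc*, *Sftpa1*, *Scgb1a1* and *Nkx2-1* had 0 UMIs in all nuclei. The other genes of that list, *Ager*, *Foxj1* and *Sftpb*, had 145, 30 and 9 UMIs over all nuclei.

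The 10 genes were spread unevenly over the cell classes. The classes were named from marker lists that hold none of the 10 genes, and the 10 genes were left out of the clustering. *Trem2*, *Gpnmb*, *Apoe* and *Abcg1* had their highest pooled CPM in macrophage-like or monocyte-like nuclei. Of the *Apoe* UMIs, 43.9% lay in macrophage-like, 9.68% in monocyte-like and 33.5% in mesenchymal-like nuclei. Of all *Abcg1* UMIs, 69.5% lay in macrophage-like and 13.3% in monocyte-like nuclei, which made up 30.1% and 4.48% of nuclei. Of the 115 *Gpnmb* UMIs of the whole data set 65.2% lay in macrophage-like nuclei, and of the 587 *Trem2* UMIs 45.1% did, with 38.8% in the far deeper mesenchymal-like nuclei. *Lpl*, *Cd36* and *Fabp4* had another source. The 64 adipocyte-like nuclei were 0.365% of all nuclei and carried 0.0732% of all UMIs, yet they held 52.6% of the *Lpl*, 41% of the *Cd36* and 24.5% of the *Fabp4* UMIs. The 191 endothelial-like nuclei held a further 42.2% of the *Fabp4* and 35% of the *Cd36* UMIs.

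**Figure D1:**
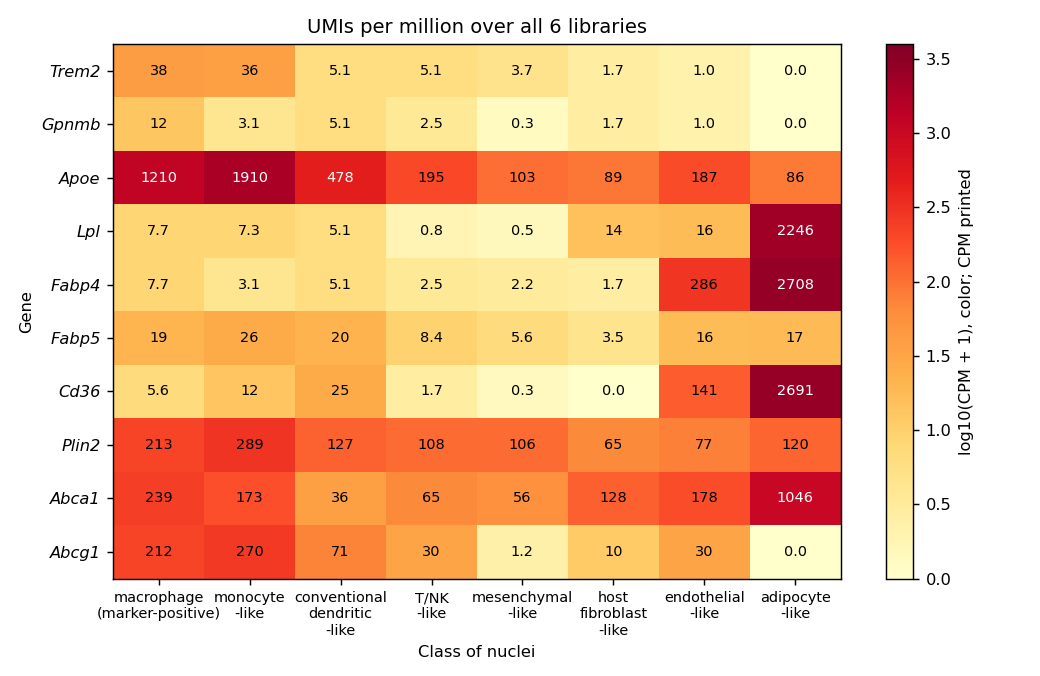
Level of each of the 10 genes (rows) in 8 classes of nuclei (columns), as UMIs per 1000000 UMIs of that class over all 6 libraries; the printed number is the CPM and the color is log10(CPM + 1). *Lpl*, *Fabp4* and *Cd36* peak in adipocyte-like nuclei at 2246, 2708 and 2691 CPM, and *Apoe* in monocyte-like nuclei at 1910 CPM.

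Set against the mesenchymal-like nuclei, the class with the TC1 markers, 7 of the 10 genes were higher in macrophage nuclei in each of the 6 libraries: *Trem2*, *Apoe*, *Lpl*, *Fabp5*, *Plin2*, *Abca1* and *Abcg1*. The same 7 were higher than in T/NK-like nuclei, also in each of the 6. *Trem2* averaged 37.9 CPM in macrophage and 3.56 CPM in mesenchymal-like nuclei, and *Abca1* pooled 239 against 55.9 CPM. *Plin2*, by contrast, was broad, with 213 CPM in macrophage, 106 CPM in mesenchymal-like and 108 CPM in T/NK-like nuclei. Adipocyte-like nuclei exceeded macrophage nuclei in each library for *Lpl*, *Fabp4*, *Cd36* and *Abca1*. *Abca1* reached 678 to 1487 CPM in them, although each library held only 10 to 12 such nuclei, and 1 UMI of *Fabp5* in KO replicate 1 already gave 111 CPM. *Trem2*, *Gpnmb* and *Abcg1* had 0 UMIs among the 58339 UMIs of adipocyte-like nuclei, which allows a level of up to 51.4 CPM (a limit of 3 counts, for counting error only). The *Abcg1* level of macrophage nuclei, 212 CPM, was above that limit, and those of *Trem2* (38.4 CPM) and *Gpnmb* (12.0 CPM) were below it. These contrasts between classes are descriptions, since the classes were formed from the same nuclei.

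Monocyte-like nuclei, 785 in a cluster led by interferon-response genes with 5 of 9 monocyte markers at their highest, also carried these genes. None of the 10 was higher in macrophage nuclei in all 6 libraries. *Abcg1* alone was lower in macrophage nuclei in all 6, at 212 CPM pooled against 270 CPM in monocyte-like nuclei. *Apoe* averaged 1624 ± 1286 CPM (SD, n = 6 libraries) in monocyte-like and 1155 ± 655 CPM in macrophage nuclei, and was higher in monocyte-like nuclei in 4 of 6 libraries. Among the 4 classes with at least 20 nuclei in each library (macrophage, monocyte, T/NK and mesenchymal), the library ranges of neighbors in the order of levels overlapped for each gene, with 2 exceptions. *Apoe* and *Abcg1* in macrophage-like nuclei lay above T/NK-like nuclei without overlap.

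*Trem2* was sparse. In macrophage nuclei its CO levels were 42.7, 52.8 and 27.3 CPM, and its KO levels were 53.1, 30.6 and 21.2 CPM. The groups overlapped, and CO replicate 3 and KO replicate 3 were the lowest of their groups. The fitted log2 KO/CO was −0.23 (SE 0.38, adjusted p = 0.884, edgeR quasi-likelihood test), and it was −0.78 (SE 0.33, adjusted p = 0.11) without KO replicate 1. *Gpnmb* was sparser still, and its 67 UMIs lay in 35 of the 4132 macrophage nuclei. CO replicates 1 to 3 held 0, 1 and 4 of these UMIs, while KO replicates 1 to 3 held 39, 1 and 22, which gave 0, 0.96 and 6.41 CPM against 32.4, 2.55 and 14.6 CPM. KO replicates 1 and 3 were above each CO library and KO replicate 2 was not. Positive nuclei numbered 2 of 1786 in CO and 33 of 2346 in KO. The gene was under the limit on low counts of the main test. With that limit lifted, edgeR gave a log2 KO/CO of 3.08 (SE 0.76, adjusted p = 0.126). *Gpnmb* was thus not called, and 2 libraries carried nearly all of its UMIs.

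*Apoe* varied widely between libraries. CO macrophages were at 1708, 1621 and 840.2 CPM, whereas KO macrophages were at 1868, 382 and 508 CPM. KO replicate 1 was the highest of the 6 libraries, and the other KO libraries were below all 3 CO libraries. The CO mean was 1390 ± 478 CPM (SD, n = 3) and the KO mean 920 ± 824 CPM, with a log2 KO/CO of −0.59 (SE 0.53, adjusted p = 0.812, edgeR). Without KO replicate 1, edgeR gave −1.58 (SE 0.27, adjusted p = 0.00133), which passed the test, and over all alternatives the adjusted p ranged from 0.00133 to 1.000. KO replicate 1 was also the highest library outside the macrophages. In mesenchymal-like nuclei the CO levels of *Apoe* were 114, 133 and 75.1 CPM and its KO levels 172, 20.1 and 96.9 CPM. In T/NK-like nuclei the CO levels were 219, 231 and 132 CPM, and the KO levels 342, 94.5 and 135 CPM. In all 3 classes KO replicate 1 was the highest library and KO replicate 2 the lowest. Among these 3 classes, KO replicate 3 was below all CO libraries in macrophage nuclei only. In monocyte-like nuclei it was also below them, at 447 CPM against 872 to 2786 CPM. Whether free *Apoe* RNA takes part in this was not tested. *Lpl*, with 43 UMIs in 34 nuclei, was too low for the main test. Its CO levels were 3.77, 8.64 and 3.21 CPM, its KO levels 13.3, 7.65 and 6.61 CPM, and the groups overlapped.

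The fatty acid carriers and *Cd36* were rare in macrophage nuclei. *Fabp4* had CO levels of 2.51, 13.4 and 9.62 CPM and KO levels of 7.47, 0 and 7.94 CPM. *Cd36* had CO levels of 1.26, 3.84 and 3.21 CPM and KO levels of 6.64, 0 and 10.6 CPM. Neither passed the limit on low counts, and in both KO replicate 2 was at 0 and the groups overlapped. The 13 adipocyte markers summed to 248 to 326 CPM in the CO macrophages and to 172, 625 and 705 CPM in KO replicates 1 to 3, with *Plin1*, *Lep* and *Retn* at 0 UMIs. The same 13 were higher in mesenchymal-like nuclei, at 1287 to 1367 CPM in CO and 1524, 3060 and 2874 CPM in KO replicates 1 to 3. The source of these levels was not tested. The 11 endothelial markers summed to 227 to 285 CPM in CO and 88.8 to 376 CPM in KO macrophages, with *Egfl7* at 0 UMIs. *Fabp5* passed the limit on low counts, with CO levels of 12.6, 17.3 and 22.4 CPM and KO levels of 37.3, 2.55 and 13.2 CPM. Its KO libraries lay above, below and among the CO libraries, and the log2 KO/CO of 0.21 (SE 0.59, adjusted p = 0.936, edgeR) turned to −0.66 without KO replicate 1 (SE 0.48, adjusted p = 0.355). The annotation lists a processed pseudogene copy of *Fabp5*, which could share its reads, so its count is uncertain.

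*Plin2* was at 231, 176 and 149 CPM for CO macrophages, and at 335, 117 and 185 CPM for KO macrophages. As with *Apoe*, KO replicate 1 was the highest library and KO replicate 2 the lowest. The log2 KO/CO was 0.23 (SE 0.33, adjusted p = 0.868, edgeR), and it was −0.19 (SE 0.22, adjusted p = 0.579) without KO replicate 1. *Abcg1* had CO levels of 239.7, 250.5 and 167 CPM and KO levels of 162, 140.2 and 247 CPM, with overlapping groups. Its log2 KO/CO was −0.22 (SE 0.26, adjusted p = 0.839, edgeR), and −0.077 (SE 0.23, adjusted p = 0.843) without KO replicate 1.

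*Abca1* was the only one of the 10 genes whose CO and KO levels did not overlap in macrophage nuclei. CO macrophages were at 143, 171 and 212 CPM, whereas KO macrophages were at 305, 382 and 257 CPM. Each KO library was above each CO library, and the CO mean was 175 ± 34.5 CPM (SD, n = 3) against a KO mean of 315 ± 63.2 CPM. The log2 KO/CO was 0.86 (SE 0.24). It had an unadjusted p of 0.00574 and an adjusted p of 0.773 over the 9360 genes (edgeR), so it was not called. Over the alternatives run, the adjusted p ranged from 0.0118 to 1.000, and the lowest came without KO replicate 1 (log2 0.90, SE 0.22). Leaving out 1 library at a time kept the log2 KO/CO between 0.68 and 1.03.

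The stretch before its start is shown because *Abca1* and *Apoe* are both known targets of the oxysterol receptors LXR. Their fitted values lay on opposite sides of 0, but neither was called with all libraries. Whether a motif bears on these levels was not tested. *Abca1* spans chr4:53030787-53159895 on the minus strand (GRCm38, 50 merged exons), and *Apoe* spans chr7:19696109-19699188 on the minus strand (5 merged exons). RefSeq promoter sequences (GRCm38.p6) matched 6 of the 10 genes. The 250 bases before each start are given 5′ to 3′ on the strand of the gene, with matches to 3 motifs in capitals: GGTNA and GGTCA with 5 bases between them, a form of the direct repeat that LXR binds, the E-box CACGTG and the TATA box TATAAA, each searched on both strands.
Abca1 (chr4:53159896-53160145): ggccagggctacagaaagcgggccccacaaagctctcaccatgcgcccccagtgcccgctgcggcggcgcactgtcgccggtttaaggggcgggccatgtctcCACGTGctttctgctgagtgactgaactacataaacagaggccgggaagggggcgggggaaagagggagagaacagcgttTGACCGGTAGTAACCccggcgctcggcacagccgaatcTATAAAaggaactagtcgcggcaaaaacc
Apoe (chr7:19699189-19699438): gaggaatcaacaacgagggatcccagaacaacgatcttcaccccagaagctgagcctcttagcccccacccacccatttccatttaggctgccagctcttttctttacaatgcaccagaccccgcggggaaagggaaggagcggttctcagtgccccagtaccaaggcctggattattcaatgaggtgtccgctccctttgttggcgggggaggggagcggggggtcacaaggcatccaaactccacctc
In *Abca1* the LXR form lay on the other strand at bases 67 to 53 before the start, the E-box at 147 to 142 and the TATA box at 29 to 24. None of the 3 motifs overlapped another, and none lay in the *Apoe* stretch shown, which is the outermost of 3 starts listed (the next start inward has TATAAA at bases 96 to 91 before it and, on the other strand, at bases 100 to 95). The LXR form was found in 0.177% of the 32851 promoters of the same length, the E-box in 6.02% and the TATA box in 12.4%. Among the other matched genes, *Trem2*, *Gpnmb*, *Cd36* and *Plin2*, none held any of the 3 motifs. A match describes the letters only, and the lack of one holds only for the 250 bases searched.

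**Figure D2:**
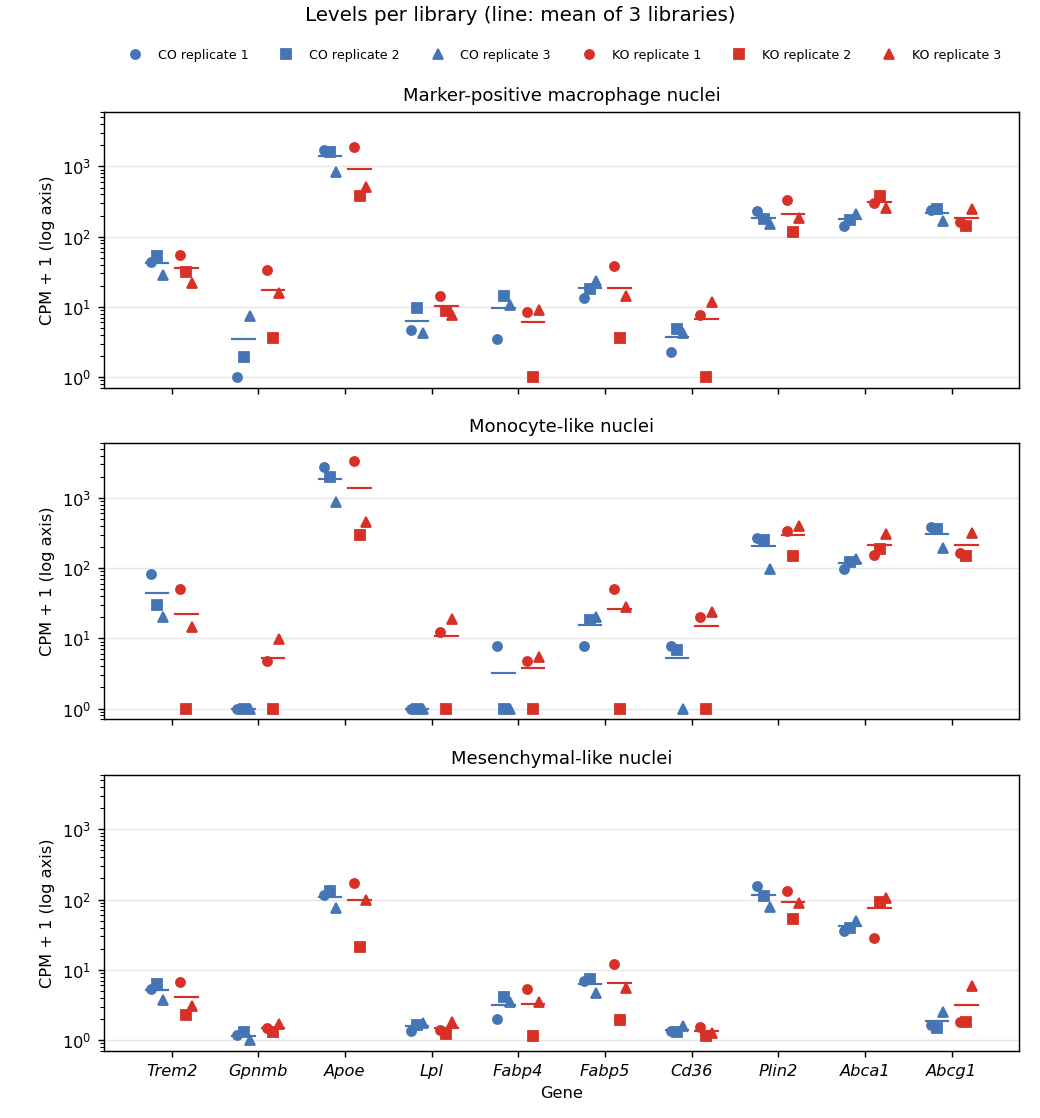
CPM + 1 of each gene (log axis) in marker-positive macrophage, monocyte-like and mesenchymal-like nuclei, with 1 symbol per library (CO blue, KO red) and a line at the mean of 3 libraries. In macrophage nuclei the 3 KO values of *Abca1* (257 to 382 CPM) lie above the 3 CO values (143 to 212 CPM), and for *Apoe* KO replicate 1 (1868 CPM) lies above CO while the other KO libraries lie below.

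In the comparison of KO with CO macrophage nuclei, 6 of the 10 genes passed the limit on low counts and 0 of the 6 were called, where 0% of the 9360 genes tested were called (edgeR, absolute log2 of at least 0.58 and adjusted p of at most 0.05). At an unadjusted p under 0.05 there were 569 of the 9360 genes (6.08%), and *Abca1* among the 6. DESeq2 called 2 genes (0.013%), and edgeR without the limit on low counts called 16 (0.104%), with none of the 10 in either. Groups did not overlap for *Abca1* alone of the 6, and for 12% of all genes tested, 6.19% with KO higher and 5.85% with KO lower. *Abca1*, *Fabp5* and *Plin2* had a log2 KO/CO above 0 and *Apoe*, *Trem2* and *Abcg1* below 0, where 50.3% of all genes were below 0. The median was −0.01 over the 6 and −0.003 over all genes. Without KO replicate 1, edgeR called *Abca1* higher and *Apoe* lower in KO, 2 of 6, where it called 17% of all genes tested, 7.63% higher and 9.33% lower. *Gpnmb*, *Lpl*, *Fabp4* and *Cd36* were not tested, and their values are those given above.

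In monocyte-like nuclei, the CO levels of *Abca1* were 94.7, 122 and 134 CPM, and the KO levels 153, 183 and 304 CPM. Again the groups did not overlap, as for 10.2% of all genes in these nuclei, 4.05% with KO higher and 6.12% with KO lower. The log2 KO/CO was 0.92 (SE 0.35, adjusted p = 0.984, edgeR) and 1.13 without KO replicate 1 (SE 0.33, adjusted p = 0.0333). *Apoe* in monocyte-like nuclei had CO levels of 2786, 1968 and 872 CPM and KO levels of 3380.0, 293 and 447 CPM. KO replicate 1 was again the highest library and the other KO libraries were the lowest. Its log2 KO/CO was −0.35 (SE 0.74, adjusted p = 0.985, edgeR) with all libraries and −2.35 (SE 0.39, adjusted p = 0.000711) without KO replicate 1. *Plin2* (log2 0.62, SE 0.42) and *Abcg1* (log2 −0.51, SE 0.37) were the other genes tested there, each with overlapping groups, and had values of 0.52 and −0.34 without KO replicate 1. Thus 0 of 4 tested genes were called with all libraries, where 0% of 3954 genes were called and 3.87% had an unadjusted p under 0.05. Without KO replicate 1, *Abca1* was called higher and *Apoe* lower, 2 of 4, where 8.52% of genes were called, 3.2% higher and 5.32% lower. Of the 4 genes 2 had a log2 KO/CO below 0, as had 46.3% of all genes. KO replicate 2 had only 35 monocyte-like nuclei.

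In mesenchymal-like nuclei, *Abca1* was at 35.1, 38.4 and 48.5 CPM for CO, and at 27.1, 92.0 and 105 CPM for KO. KO replicate 1 was the lowest of the 6 libraries and the other KO libraries were the highest. The log2 KO/CO was 0.96 (SE 0.47, adjusted p = 0.576, edgeR) with all libraries and 1.37 (SE 0.16, adjusted p = 0.0294) without KO replicate 1. *Trem2*, *Apoe* and *Plin2* had log2 values of −0.39, −0.13 and −0.29 there, and *Fabp4* and *Fabp5* of 0.12 and 0.05, with SEs of 0.36 to 0.90 and overlapping groups throughout, where 13% of all genes did not overlap (5.49% with KO higher, 7.49% with KO lower) and 51.8% were below 0. The values without KO replicate 1 were −1.28 for *Trem2*, −0.84 for *Apoe*, −0.63 for *Plin2*, −0.83 for *Fabp4* and −1.01 for *Fabp5*. In these nuclei 0 of 6 tested genes were called, where 0% of 12851 genes were, and without KO replicate 1 *Abca1* alone was called, where 18.6% of all genes were called, 6.17% higher in KO. Over all nuclei together, 9 of the 10 genes were tested and 0 were called, where 0% of 13662 genes were called by edgeR, 0.0607% by DESeq2 and 4.82% had an unadjusted p under 0.05. There *Abca1* had a log2 KO/CO of 0.94 (SE 0.33, adjusted p = 0.672, edgeR), and 1.23 (SE 0.19, adjusted p = 0.0643) without KO replicate 1, and its groups overlapped. *Gpnmb*, which was under the limit on low counts, was the 1 of the 10 genes without overlap over all nuclei, with 4, 4 and 4 UMIs for CO and 60, 10 and 33 UMIs for KO. DESeq2 gave it a log2 KO/CO of 2.85 (adjusted p = 0.186). In mesenchymal-like nuclei it did not overlap either, at 2, 3 and 0 UMIs for CO and 6, 4 and 5 UMIs for KO. That separation was narrow, with CO replicate 2 at 0.284 CPM and KO replicate 2 at 0.293 CPM. Of the genes tested over all nuclei, 11.3% did not overlap (4.38% with KO higher, 6.92% with KO lower) and 52.2% were below 0. The shares without overlap cover tested genes only, and *Gpnmb* was not among them in either set. In T/NK-like nuclei the CO levels of *Abca1* were 35.4, 60.9 and 54.5 CPM and its KO levels 37.7, 94.5 and 115 CPM, with overlap. The KO groups of these classes come from the same 3 tumor libraries, so the classes are not independent of each other.

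**Figure D3:**
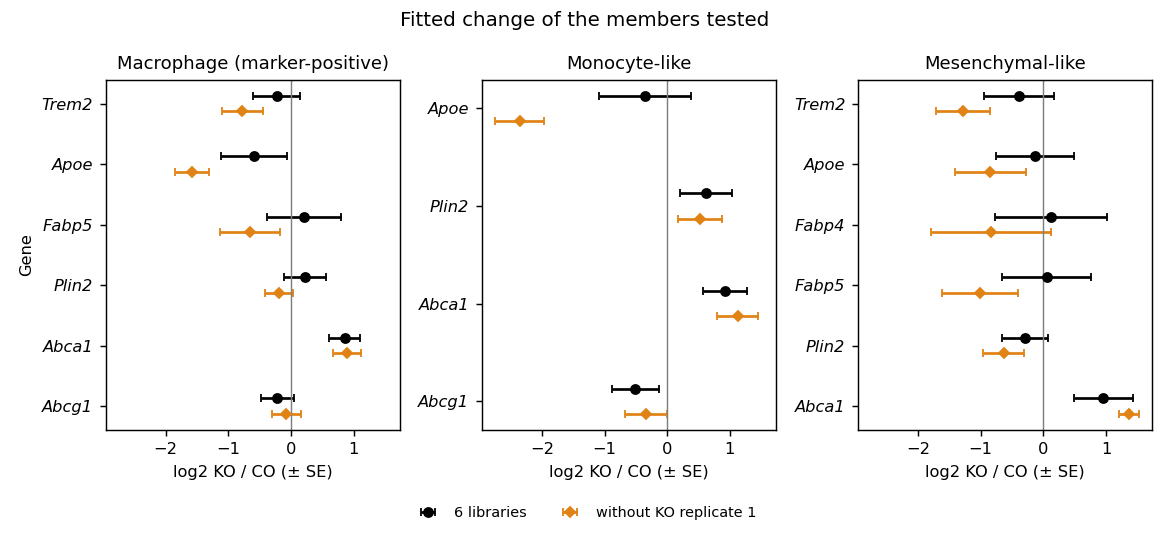
Fitted log2 KO/CO (x axis, ± SE) of the genes tested in each of 3 classes, with all 6 libraries (black circles) and without KO replicate 1 (orange diamonds). *Abca1* lies between 0.86 and 1.37 in each fit shown, while *Apoe* moves from −0.59 to −1.58 in macrophage and from −0.35 to −2.35 in monocyte-like nuclei.

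To compare detection at equal depth, each macrophage nucleus was thinned to 1000 UMIs, which kept 2604 of the 4132. The loss was uneven between the 2 macrophage-like clusters. In the cluster led by *Mrc1* 2339 of 2815 nuclei were kept, and in the cluster led by *H2-Ab1* 265 of 1317. The shares at 1000 UMIs thus describe mainly the *Mrc1* cluster. *Apoe* was detected in 54.1% of the 2604 nuclei, *Abca1* in 18.9%, *Plin2* in 18.6% and *Abcg1* in 18.1%. *Trem2* followed with 3.88% and *Fabp5* with 2.15%, and *Gpnmb*, *Lpl*, *Fabp4* and *Cd36* were each detected in under 1% (0.92%, 0.58%, 0.54% and 0.54%). Free RNA gives UMIs to nuclei that do not express a gene, so the share in T/NK-like nuclei, thinned to the same 1000 UMIs, is set beside these. It was 21.5% for *Apoe*, 6.56% for *Abca1*, 12% for *Plin2*, 4.07% for *Abcg1* and 0.905% for *Trem2*. For *Fabp5* it was 1.13%, for *Gpnmb* 0.452% and for *Lpl* and *Cd36* 0%. For *Fabp4* it was 0.905%, which was not below the macrophage share. In 18 adipocyte-like nuclei of that depth *Fabp4* and *Lpl* were each found in 94.4%, *Cd36* in 88.9% and *Abca1* in 61.1%. By library, *Abca1* was detected in 12.6%, 14.3% and 17.2% of the CO and in 21.9%, 28.7% and 21.4% of the KO macrophages. As with its CPM, these ranges did not overlap. *Apoe* was detected in 65.6%, 65.2% and 48.5% of the CO and in 66.6%, 31.3% and 34.6% of the KO macrophages, with overlap. Without thinning the shares were 21.8% for *Abca1* and 61% for *Apoe*.

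**Figure D4:**
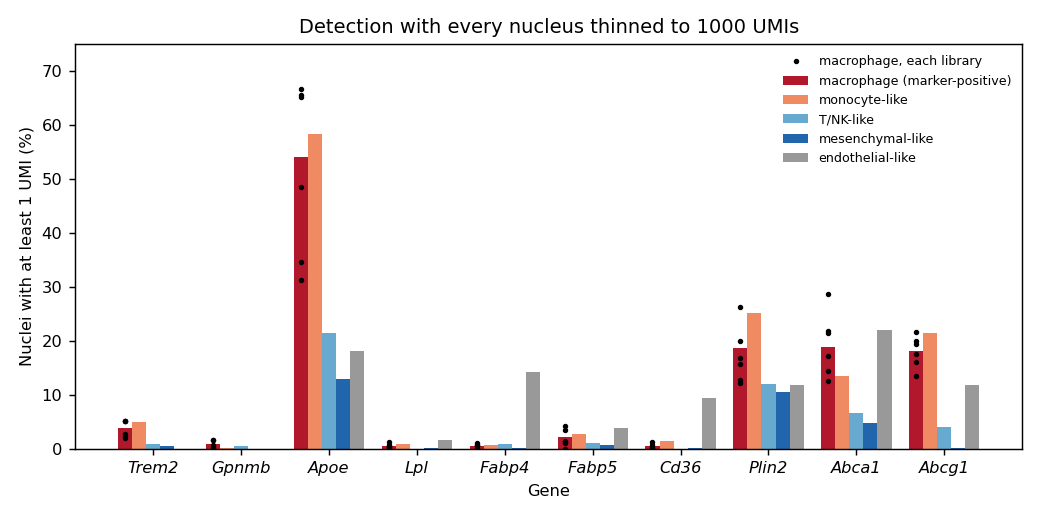
Share of nuclei with at least 1 UMI of each gene (y axis, %) in 5 classes, each nucleus thinned to 1000 UMIs; bars pool 6 libraries and black points are the 6 libraries of the macrophage nuclei. *Apoe* leads with 54.1% of macrophage nuclei, and *Fabp4* and *Cd36* are more often found in endothelial-like nuclei (14.2% and 9.45%).

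Few macrophage nuclei showed several of the 10 genes at once. At 1000 UMIs, 23.6% of macrophage nuclei had none of the 10, 44% had 1, 24.4% had 2 and 7.99% had 3 or more, and 3 nuclei (0.115%) had 5 or more. The share with 3 or more averaged 7.33 ± 1.72% (SD, n = 3) for CO and 7.36 ± 3.40% for KO, and the groups overlapped. It was 9.95% in monocyte-like, 2.04% in T/NK-like and 0.108% in mesenchymal-like nuclei. Co-detection was measured as the number of nuclei with both genes of a pair, divided by the number that the product of the 2 shares within each library gives. Of the 45 pairs, 19 had a product of at least 5 nuclei, and their ratios ran from 0.76 to 2.11 with a median of 1.04. None of the 19 was above 1 in all 6 libraries, although pairs with a gene undetected in a library have no ratio there. The most frequent pair, *Apoe* with *Plin2*, was found in 275 nuclei against a product of 274.7. *Trem2* with *Abca1* had 33 nuclei against a product of 18.3, a ratio of 1.80, and was above 1 in 5 of 6 libraries. *Gpnmb* with *Abca1* had 11 nuclei against 5.22, a ratio of 2.11, with all 11 in KO libraries. *Trem2* with *Gpnmb* was found in 2 nuclei. Over the 6 libraries together, 15 of the 19 pairs were above 1 at 1000 UMIs. Without thinning, 29 of 31 pairs were above 1, but deeper nuclei then raise both genes of a pair.

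**Figure D5:**
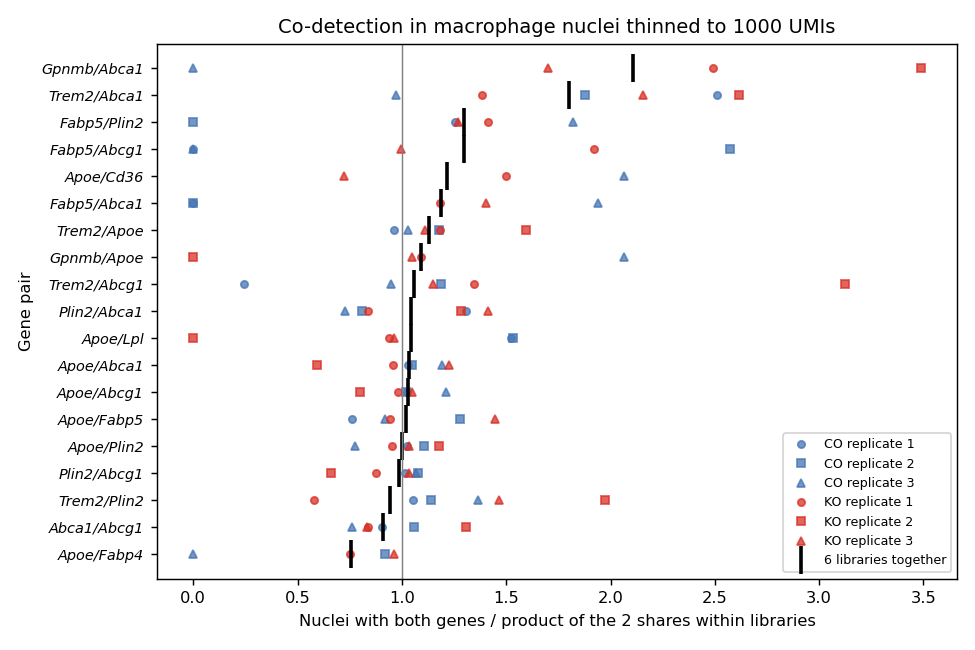
Ratio of macrophage nuclei with both genes of a pair to the product of the 2 shares within libraries (x axis), for the 19 pairs with a product of at least 5 nuclei at 1000 UMIs; symbols are libraries (CO blue, KO red) and black bars are all 6 together. The bars run from 0.76 to 2.11, and no pair has symbols above 1 in all 6 libraries.

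The 2 macrophage-like clusters had different levels of some of these genes. One cluster (3166 nuclei) was led by *Mrc1* and *Stab1*, genes of scavenging macrophages, and the other (2108 nuclei) by the antigen-presentation genes *H2-Ab1*, *H2-Eb1* and *Cd74*, with *Apoe* also among its 10 leading genes. The *Mrc1* cluster made up 62.4% to 73.4% of the macrophage nuclei of each library. *Apoe* was higher in the *H2-Ab1* cluster in 6 of 6 libraries (1651 against 1129 CPM pooled). *Abca1* (266 against 155 CPM) and *Lpl* (8.84 against 1.15 CPM) were higher in the *Mrc1* cluster in 6 of 6. *Abcg1* was higher in the *Mrc1* cluster in 5 of 6 libraries (222 against 159 CPM) and *Gpnmb* in 4 (14.2 against 3.46 CPM), and 94.3% of *Gpnmb*-positive macrophage nuclei lay there, against 68.1% of all. That share was 95.8% for *Cd36* and 94.1% for *Lpl*, and it was lowest for *Apoe*, at 71.6%. These shares were taken without thinning, and the *Mrc1* cluster was deeper (median of 1308 against 766 UMIs per nucleus). *Trem2* and *Plin2* were each higher in the *Mrc1* cluster in 4 of 6 libraries. For *Trem2* the *H2-Ab1* cluster exceeded the *Mrc1* cluster mainly in KO replicate 1 (81.2 against 55.2 CPM), and was lower in CO replicates 2 (27.1 against 56.5 CPM) and 3 (9.98 against 31.3 CPM). These are descriptions of clusters made from the same nuclei, and they carry no test.

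The genes most like each of the 10, among 10239 genes, were found by Pearson's r of log2(CPM + 1). It was taken over 38 sums of library and class, each of at least 20 nuclei. Adipocyte-like nuclei, 10 to 12 per library, were therefore left out. *Lpl*, *Fabp4* and *Cd36* peaked in that class, so their nearest genes are those of the remaining classes. The values of r are a description only, since sums of 1 library share its depth and free RNA. *Apoe* went most closely with the complement genes *C1qa* (r = 0.98) and *C1qb* (r = 0.93) and with *Fcer1g* (r = 0.92). *Abcg1* was nearest to *Vsir* (r = 0.92), *Tnfrsf11a* (r = 0.92) and *Slfn5* (r = 0.91), and *Trem2* to *Slamf9* (r = 0.85), *Fhad1* (r = 0.84) and *Tmem86a* (r = 0.83). *Fabp4* was nearest to the endothelial genes *Tie1* (r = 0.88), *Dipk2b* (r = 0.86) and *Ushbp1* (r = 0.85), and *Cd36* to *Rasgrp3* (r = 0.82), *Fabp4* (r = 0.79) and *Lrg1* (r = 0.75). *Abca1* was nearest to *Zswim6* (r = 0.87), *Snx13* (r = 0.86) and *Pik3c2a* (r = 0.80), and *Plin2* to the lysosomal protease gene *Ctsb* (r = 0.81), *Rpl26* (r = 0.79) and *Ndufa4* (r = 0.79). *Lpl* with *Cdh13*, *Ldb2* and *Me3* (r = 0.69 to 0.71), *Fabp5* with *Scnm1* (r = 0.81) and *Rab1b* (r = 0.71) and *Gpnmb* with *P2ry10b*, *Tlr13* and *Gzme* (r = 0.57 to 0.67) were looser.

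The pathways around these genes were followed through 6 further lists, and in macrophage nuclei 0 of their tested genes were called with all libraries (edgeR). Of the LXR receptors and targets, 10 of 13 genes were tested and all 10 had a log2 KO/CO above 0, where 50.3% of all genes were below 0. Their median was 0.33 beside −0.003 over all genes. The list leaves out the 10 genes. Of the LXR targets named above, *Abca1* had a log2 of 0.86 and *Apoe* of −0.59, and *Abcg1* had −0.22. *Scd1*, a desaturase of fatty acids, had the largest value of the list (log2 1.02, SE 0.39, adjusted p = 0.773, edgeR). Its CO mean was 15.8 ± 2.74 CPM (SD, n = 3) and its KO mean 31.6 ± 12.2 CPM, with no overlap. In this list 2 of the 10 tested genes did not overlap, where 12% of all genes tested did not. *Scd2* followed (log2 0.71, SE 0.33, adjusted p = 0.773, edgeR). Without KO replicate 1, edgeR called *Scd1* (log2 1.35, adjusted p = 0.0106) and *Scd2* (log2 1.06, adjusted p = 0.00305) higher, 2 of 10 where it called 7.63% of all genes higher. Of the cholesterol synthesis genes, 15 of 16 tested had a log2 below 0 (median −0.27), led by the mevalonate pathway genes *Mvd* (log2 −1.28, SE 0.49, adjusted p = 0.773, edgeR) and *Mvk* (log2 −0.63, SE 0.39, adjusted p = 0.773). *Mvd* alone of this list was called lower without KO replicate 1, 1 of 16 where 9.33% of all genes were.

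The TREM2 signaling and lysosomal list split, with 7 of its 17 tested genes above and 10 below 0 (median −0.11). Its largest values were those of *Csf1*, a macrophage growth factor (log2 1.05, SE 0.31, adjusted p = 0.773, edgeR), and *Spp1*, which encodes osteopontin (log2 −0.74, SE 0.30, adjusted p = 0.773). *Spp1* had CO levels of 4929.7, 4894 and 5963 CPM and KO levels of 4395, 2435 and 2600.3 CPM, with no overlap. Groups did not overlap for 3 of the 17 tested genes of this list, and for 12% of all genes tested. Without KO replicate 1, *Csf1* was called higher, and *Spp1*, *Tyrobp*, *Ctsl*, *Ctsz* and *Cd68* lower. These were 1 of 17 higher, where 7.63% of all genes were, and 5 of 17 lower, where 9.33% were. *Tyrobp* encodes the adaptor through which TREM2 signals, and its KO/CO log2 without that library was −1.11 (adjusted p = 0.0147, edgeR). The other 3 lists had 0 to 1 gene called in that fit, which was *Npc2* of the lipid droplet and hydrolysis list. The genes with the largest values with all libraries were *Angptl4* (log2 0.86) and *Ppard* (log2 −0.44) among 5 PPAR receptors and targets, *Lrp1* (log2 0.76) and *Msr1* (log2 0.73) among 6 uptake genes, and *Lipe* (log2 −0.43) and *Plin3* (log2 −0.42) among 9 droplet genes, with adjusted p of 0.773 to 0.836 (edgeR).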

How the data were processed

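Nuclei of 3 CO and 3 KO tumors were profiled with a droplet 3′ kit. Per the submitters' processing notes, the authors made the deposited UMI counts with Cell Ranger 3.0.2 on GRCm38 and used Seurat 5.2.1, while the file headers name software version 3.1.0. Correction for free RNA is described in the study's methods, but the deposited counts are whole numbers, and whether they were corrected, whether introns were counted and how strand was used are not given in the sources used here. Nuclei with 100 to 7500 genes and under 20% mitochondrial counts were kept (18014 of 18865). The 500 with the highest doublet scores were removed, since the automatic threshold marked only 20. The rest were clustered (scanpy 1.11.5, leidenalg 0.10.2) without the 10 genes, 8 of which were among the variable genes, and rules for naming clusters were set after the clusters were seen.

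UMI counts were summed per library and class and fitted over all genes with the edgeR 4.0.16 quasi-likelihood test (R 4.3.3), with TMM scaling, a limit on low counts and Benjamini-Hochberg adjustment. A call needed an absolute log2 of 0.58 and an adjusted p of 0.05. The script was tested on simulated counts. DESeq2 1.42.0, other scalings and filters, other definitions of macrophage nuclei, thinning to 1000 UMIs, leaving out each library and a replicate block were alternatives. Genes named were the 10 genes, of each further list those called or else the 2 with the largest absolute log2, and the 3 genes most like each of the 10, of which 1 is not reported here. List genes called only without KO replicate 1 were named after their values were seen. The 10 genes and the lists were chosen with earlier results of these data known. Intervals and limits cover counting error only. Of the 22623 gene IDs, 22590 matched GENCODE vM21.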

Additional observations from a re-analysis of the deposited data

How the results depend on the processing

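KO replicate 1 decided most calls. Leaving out 1 library at a time, the number of genes called between KO and CO ranged from 0 to 1587 in macrophage, 0 to 354 in monocyte-like and 0 to 2420 in mesenchymal-like nuclei, with the highest counts all without KO replicate 1. Of the 10 genes, 0 to 2, 0 to 2 and 0 to 1 were called in these classes, and of the further lists 0 to 10 genes. With all libraries, DESeq2 called 2 genes in macrophage, 21 in mesenchymal-like and 11 in all nuclei, and edgeR without the limit on low counts called 16 in macrophage and 21 in monocyte-like nuclei. Leaving out 1 library turned the direction of some log2 KO/CO values. In macrophage nuclei these ranged from −0.78 to 0.084 for *Trem2*, −0.66 to 0.52 for *Fabp5* and −0.19 to 0.48 for *Plin2*. *Apoe* ranged from −2.35 (without KO replicate 1, the only called value among these) to 0.077 in monocyte-like nuclei. In mesenchymal-like nuclei the range was −0.84 to 0.34 for *Apoe*, −0.83 to 0.69 for *Fabp4*, −1.01 to 0.55 for *Fabp5* and −0.63 to 0.010 for *Plin2*. The cause was not tested. Library numbers did not pair the libraries (correlations of same-numbered deviations of 0.26, −0.24 and 0.27 in macrophage nuclei). A fit with the replicate block called 0 genes in each of the 4 sets of nuclei, and turned *Fabp5* to −0.044 in macrophage nuclei and *Fabp4* and *Fabp5* to −0.19 and −0.30 in mesenchymal-like nuclei. Pairs of genes detected together above 1 in all 6 libraries numbered 0 at 1000 UMIs, 1 at 500 UMIs and 6 without thinning. With the clusters taken apart and thinned to 1000 UMIs, the number was 2 in the *Mrc1* cluster and 0 in the *H2-Ab1* cluster. Depth limited *Gpnmb*, *Lpl*, *Fabp4* and *Cd36*, which had 31 to 67 UMIs each in macrophage nuclei.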

Other observations

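The genes of cholesterol synthesis had lower fitted levels in the KO mesenchymal-like nuclei, a class in which implanted TC1 cells and host cells cannot be told apart here. All 18 of the 18 genes tested there had a log2 KO/CO below 0, with a median of −0.36 beside −0.02 over all genes, where 51.8% of all genes were below 0. Of the 18, 9 did not overlap between groups, where 7.49% of all genes did not with KO lower. None was called by edgeR, and 5 had an unadjusted p under 0.05, as had 7% of all genes. *Cyp51*, a demethylase of the sterol pathway, averaged 145 ± 15.2 CPM (SD, n = 3) for CO and 85.7 ± 21.4 CPM for KO (log2 −0.71, SE 0.20, adjusted p = 0.576, edgeR). *Idi1*, which isomerizes isopentenyl diphosphate, had a log2 of −0.82 (SE 0.24) and *Sqle*, the squalene epoxidase, of −0.66 (SE 0.22). Without KO replicate 1, 5 of the 18 were called lower, where 12.5% of all genes were. The list was chosen with earlier results of these data known, and no test of the list as a whole was run.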
